A study of Peromyscus maniculatus with 10 samples.

Results

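Genes divided into at least 35 exons within a genomic span below 300000 bases were examined in primary ear fibroblasts of deer mice. Overlapping or abutting exons of a gene were merged before counting, and the gene had to lie on a numbered chromosome of the HU_Pman_2.1 assembly. These conditions were met by 411 of the 25394 annotated genes, 23570 of which lie on numbered chromosomes. The choice used the annotation only, so that genes of every expression level, including those without a single read, were retained. The data comprised RNA sequencing of fibroblasts taken from 10 males, aged 3 weeks, of the outbred BW stock of Peromyscus maniculatus bairdii, with 1 library per animal. All animals formed a single group, no treatment of the cells was given in the labels, and each animal is named below by its number. Read pairs were counted per gene by the authors, and the total count per library ranged from 20811334 in animal 36789 to 31912526 in animal 36907. The deposited table lists Ensembl identifiers without names, and 0 of them were matched to a symbol here. Markers of fibroblasts or of other cell types were therefore not checked, and genes are given by identifier and position.

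A gene of many exons usually encodes a large protein assembled from repeated modules, such as the structural proteins of the extracellular matrix, motor proteins, ion channels and scaffolds. An exon whose length is divisible by 3 can be skipped or duplicated without changing the reading frame of what follows. In the fibrillar collagens, the main matrix proteins secreted by fibroblasts, the triple helix is built of amino acid triplets, each encoded by 9 bases, and its exons are known to hold whole triplets, most often in lengths of 54 bases and a few related ones. This is given as background, because no name was available here for any of the genes described.

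Libraries of 2 animals stood apart from the rest. Dixon's ratio divides the gap between the outermost library and the next by the range over all libraries, so that a call can rest on a small gap. Among 13935 genes that averaged at least 10 counts per library, it passed its 95% critical value at the highest library in 4.92% of genes. At the lowest library it did so in 4.81%. Animal 36789 supplied 309 of the 685 high outliers and animal 36764 supplied 278, while 373 of the 670 low outliers belonged to animal 36764. Values without these animals are given beside many of the results below. The culture conditions of single animals were not examined here, and a difference between animals cannot be told apart from a difference between cultures, since each animal gave 1 library.

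The 411 genes had a median of 42 exons and a maximum of 191, and their median span was 103279 bases, from 12108 to 297617 bases. Merged exons covered a median of 6.70% of the span, against 13.3% over all genes on numbered chromosomes and 5.98% in the 1654 genes of 20 to 34 exons below the same span limit. The median intron measured 1069 bases, against 1282 and 1200 bases, respectively. The 66 genes of at least 35 exons that extend over 300000 bases or more, called the longer genes below, had 1.66% and 2514 bases, values that the span limit itself sets apart from those of the members. All 23 numbered chromosomes held between 6 and 37 of the 411 genes, with the most on chromosome 1. At the limits of the definition, 25 members had exactly 35 exons and 31 genes with 34 exons were left outside, and the shortest gene excluded by its span measured 303167 bases. Another 12 genes satisfied both limits but lie on the X chromosome. The merged exons of 92.0% of members summed to a multiple of 3 bases, against 86.1% of all genes on numbered chromosomes, so that the annotation as a whole appears to hold mostly coding length, although no coding annotation was examined.

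Internal exons, those other than the first and last of a gene, numbered 19115 and had a median length of 128 bases, with quartiles of 93 and 169 bases. Among them, 8765 (45.9%) had a length divisible by 3, compared with 39.9% of 134034 internal exons in all other genes, 40.2% in genes of 20 to 34 exons and 48.5% in the longer genes of at least 35 exons. A length divisible by 9 was found in 3441 (18.0%), compared with 13.5%, 13.7% and 19.0%, respectively. The length of 54 bases was the most frequent of all in these genes. It occurred in 453 internal exons (2.37%), compared with 710 (0.530%) in all other genes and 0.567% in genes of 20 to 34 exons. The longer genes of at least 35 exons had nearly the same share as the members, 86 of 3773 (2.28%). These shares describe the annotation, and no test was made on them.

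A set of 12 genes held 332 of the 453 exons of 54 bases. More than 50% of their internal exons measured 45, 54, 99, 108 or 162 bases, and this set, referred to as the 54-base exon pattern, was defined after the exon lengths and levels had been seen. All of these lengths are multiples of 9, so that shares above 50% divisible by 3 and by 9 follow from the definition. The contrast with the other members is thus set in part by it. Of the set's 690 internal exons, 645 (93.5%) were divisible by 3 and 574 (83.2%) by 9. In the other 399 members, 44.1% of internal exons were divisible by 3 and 15.6% by 9, closer to the remaining genes of the genome. An exon pattern of the same kind was found in 3 further genes of at least 10 internal exons outside the 411.

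**Figure D1:**
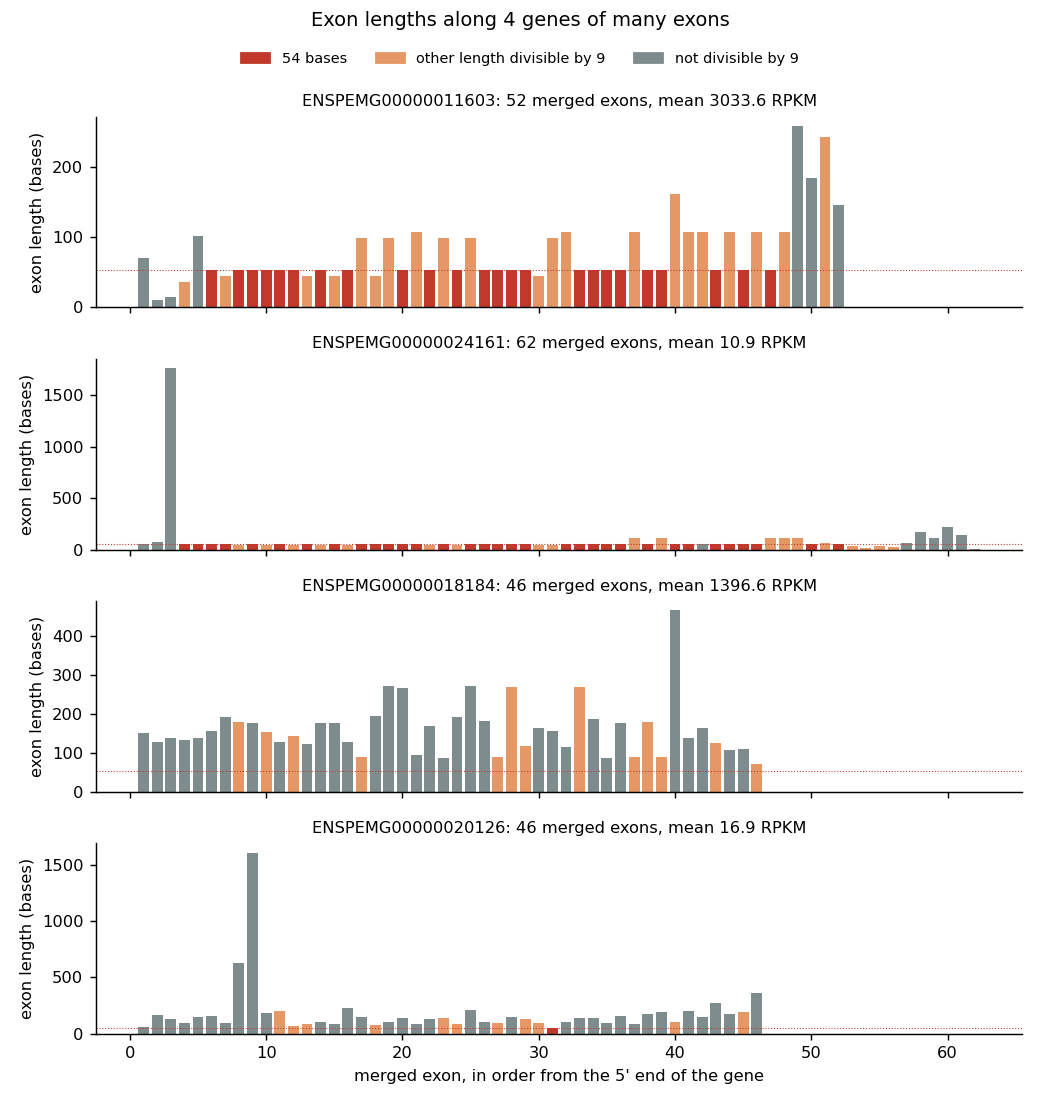
Length in bases (y axis, linear, with its own scale in each panel) of every merged exon, in order from the 5′ end (x axis), in 4 genes of many exons, with exons of 54 bases in red, other lengths divisible by 9 in orange and the remaining ones in grey; the dotted line marks 54 bases. In ENSPEMG00000011603 and ENSPEMG00000024161, exons of 54 bases run through most of the gene (24 and 33 of them), whereas ENSPEMG00000018184 has none and ENSPEMG00000020126 has 1 among internal exons of varied length.

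Most of the 411 genes were expressed in the fibroblasts. A mean count of at least 10 per library, the limit above which a gene is called expressed here, was reached by 356 of them (86.6%), compared with 56.6% of all genes on numbered chromosomes, with 85.6% of genes of 20 to 34 exons and with 74.2% of the longer genes of at least 35 exons. Between 390 and 401 members had at least 1 read in a given library, 375 had reads in every library and 1 had none in any. Counts grow with exon length, and members had a median of 6087 merged exon bases, against 984 bases over all genes on numbered chromosomes, so that levels were also expressed per length. Counts scaled to library size by TMM and divided by kilobases of merged exon (RPKM) averaged at least 1 in 288 members (70.1%), compared with 51.9% of all genes and 75.2% of genes of 20 to 34 exons.

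Among genes that passed the count minimum, members had lower levels per length than all genes together, whereas the order was the reverse when every gene was kept. The median over the 356 expressed members was 9.94 ± 0.283 RPKM (SD, n = 10 animals) and ranged from 9.45 RPKM in animal 36798 to 10.3 RPKM in animal 36746. The corresponding median was 16.9 ± 0.208 RPKM over all expressed genes and 16.3 ± 0.437 RPKM over expressed genes of 20 to 34 exons, and it was 2.44 ± 0.388 RPKM over the longer genes. In each of the 10 libraries the members' median lay between 0.560 and 0.616 of that over all expressed genes, a difference larger than the spread between animals. The count minimum admits long genes at lower RPKM than short ones. Without it, the median of the genes' mean levels was 7.63 RPKM in the 411 members, 1.44 RPKM over all genes on numbered chromosomes and 12.6 RPKM in genes of 20 to 34 exons. This remains a description of gene sets, since genes are not replicates. By mean level, 74 members were below 0.1 RPKM, 49 lay between 0.1 and 1, 108 between 1 and 10 and 158 between 10 and 100, and 22 reached 100 RPKM or more. Across the 411 genes, level and exon number were nearly unrelated (Spearman's rho = -0.07 across genes, which are not independent replicates).

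The reads on these genes were concentrated in a few of them. Together the 411 genes received 10.7 ± 1.31% of a library's counts (SD, n = 10), from 8.28% in animal 36789 to 12.6% in animal 36764. Over pooled libraries their share was 10.8%, against 15.7% for genes of 20 to 34 exons and 0.303% for the longer genes. The 2 members with the most counts took 23.9% of the pooled counts on members, the 6 highest took 42.8% and the 20 highest 68.7%. Such a concentration was not computed for other sets of genes, so it cannot be called particular to the members. The 12 genes of the 54-base exon pattern received 3.85 ± 1.21% of a library's counts, from 1.65% in animal 36789 to 5.52% in animal 36798. Animals 36798 and 36907 (5.41%) had the highest shares on the pattern, followed by animals 36797 (4.60%) and 36764 (4.54%), and animal 36789 lay below every other library, the next being 36905 with 2.84%. The other 399 members received 6.81 ± 0.489%, a narrower range from 6.31% in animal 36798 to 8.03% in animal 36764, the latter library standing above the rest. In RNA from a whole culture, fewer cells that express a gene and less RNA per cell cannot be told apart.

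**Figure D2:**
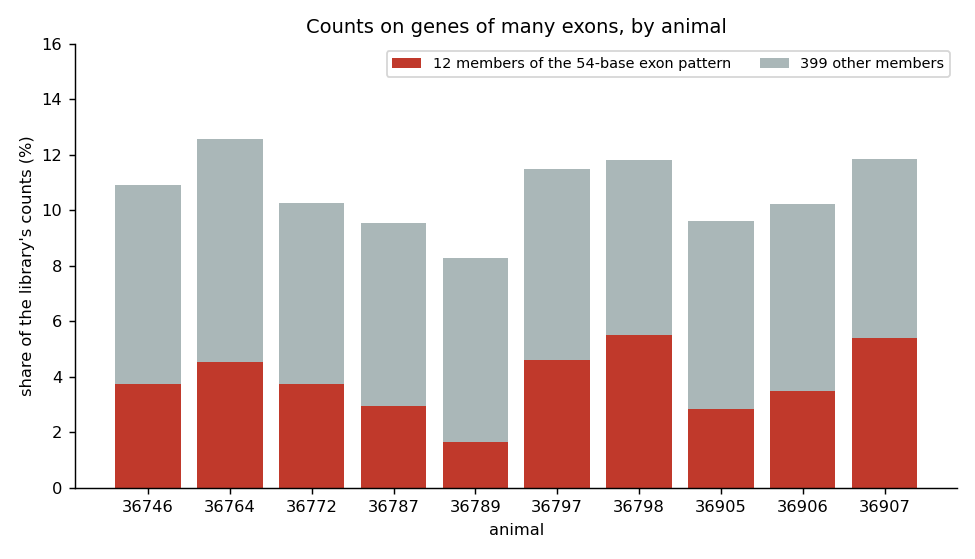
Share of each library's counts, in percent (y axis), on the 12 members of the 54-base exon pattern (red) and on the 399 other members (grey, stacked above) in each of the 10 animals (x axis), 1 library per animal. The red segment varies from 1.65% in animal 36789 to 5.52% in animal 36798, while the grey segment stays between 6.31% and 8.03%.

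Exons divisible by 9 were frequent among the most abundant members. Of the 20 members with the highest mean RPKM, 9 had more than 50% of their internal exons divisible by 9 and 7 belonged to the 54-base exon pattern, and their median share was 42.6%. In the other 391 members these numbers were 12 and 5, with a median share of 13.5%. Among 5311 other genes with at least 10 internal exons, 26 exceeded 50% and the median was 11.8%. Over all 411 members, however, the share of exons divisible by 9 and the mean level were nearly unrelated (rho = 0.04 across genes), since members below 100 RPKM rarely had a high share at any level. The 12 genes of the pattern themselves lay at levels from 0.0293 to 3034 RPKM.

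**Figure D3:**
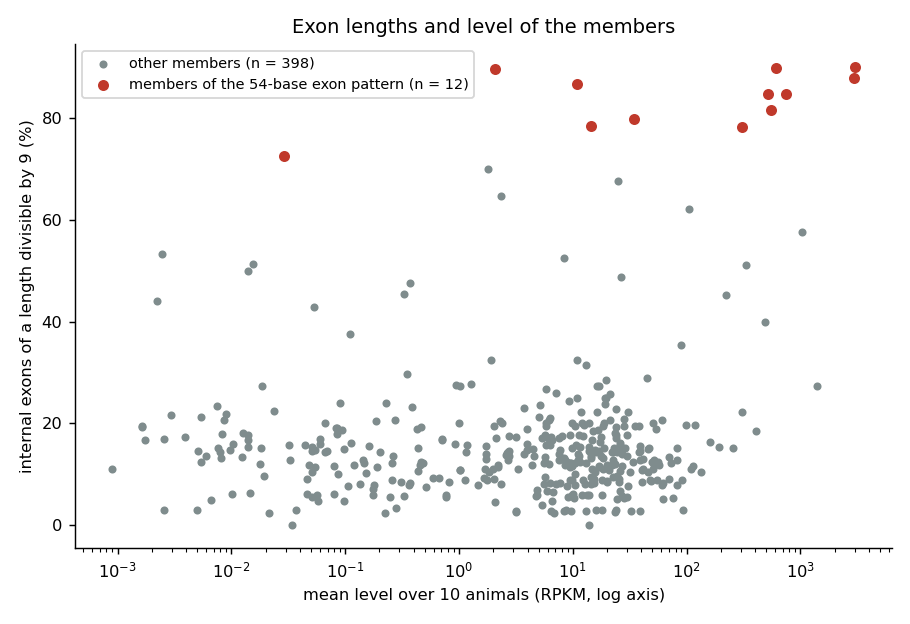
Share of internal exons of a length divisible by 9, in percent (y axis), against mean level over the 10 animals in RPKM (x axis, log scale), with 1 point per member; red points are the 12 members of the 54-base exon pattern and grey points the others, and the member without any read is left out. Red points lie above 70% and 7 of them lie above 100 RPKM, whereas the bulk of grey points lies below 30% at every level.

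Of the 6 members with the highest mean level, 4 belonged to the 54-base exon pattern. ENSPEMG00000011603 (chr3:6446148-6481216, plus strand, 52 exons, 45 of 50 internal exons divisible by 9) averaged 3034 ± 1120 RPKM (SD, n = 10), with a lowest value of 1818 RPKM in animal 36789, a median of 2830 RPKM and a highest value of 5709 RPKM in animal 36764. It ranked 17th among all genes, with animals 36764 and 36746 (4091 RPKM) above the others, and without animals 36764 and 36789 its coefficient of variation (CV, SD over mean) was 20.5% instead of 36.9%. ENSPEMG00000024212 (chr8:80144225-80159570, plus strand, 51 exons, 43 of 49 divisible by 9) averaged 2968 ± 1098 RPKM and ranked 18th, with a lowest value of 902 RPKM in animal 36789, a median of 2899 RPKM and a highest of 4525 RPKM in animal 36907. For this gene animal 36789 was a low outlier, the next library being animal 36905 with 1925 RPKM, and without animals 36764 and 36789 the CV was 27.2% instead of 37.0%. The means of these 2 genes differed by less than the spread between animals.

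The next 2 genes by level did not carry the pattern. ENSPEMG00000018184 (chr13:40311044-40380425, plus strand, 46 exons) averaged 1397 ± 286 RPKM, between 963 RPKM in animal 36789 and 1909 RPKM in animal 36764, with a median of 1377 RPKM, and 27.3% of its internal exons were divisible by 9. ENSPEMG00000011883 (chr21:11202548-11218504, plus strand, 35 exons) was the steadiest of the 6 at 1026 ± 96.1 RPKM, with values from 878 to 1148 RPKM, a median of 1056 RPKM and a CV of 9.37%, and 19 of its 33 internal exons were divisible by 9. In both genes animal 36789 gave the lowest value.

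ENSPEMG00000012994 (chr20:64270868-64299899, minus strand, 54 exons, 44 of 52 divisible by 9) was the most uneven of the 6. Its mean was 744 ± 761 RPKM, with a lowest value of 15.2 RPKM (1920 counts) in animal 36764, a median of 401 RPKM and a highest of 2209 RPKM (303317 counts) in animal 36798, a 146-fold range. Animals 36797, 36798 and 36907 lay between 1383 and 2209 RPKM, 6 animals lay between 188 and 475 RPKM, and animal 36764 was a low outlier. Its CV was 102%, and 85.3% without animals 36764 and 36789. ENSPEMG00000016978 (chr13:64010559-64046419, minus strand, 51 exons, 44 of 49 divisible by 9) averaged 609 ± 312 RPKM, from 169 RPKM in animal 36789 through a median of 562 RPKM to 1172 RPKM in animal 36798, with a CV of 51.2%, and 42.9% without animals 36764 and 36789. Its 3 highest values came from the same 3 animals as those of ENSPEMG00000012994, although the next value, 649 RPKM in animal 36772, was close to that of 704 RPKM in animal 36797.

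The other 8 genes of the pattern lay at very different levels. ENSPEMG00000017917 on chromosome 6 averaged 553 RPKM, ENSPEMG00000012578 on chromosome 13 averaged 519 RPKM and ENSPEMG00000000663 on chromosome 4 averaged 306 RPKM. Lower levels were found for ENSPEMG00000016918 on chromosome 21 with 34.7 RPKM, ENSPEMG00000015543 on chromosome 7 with 14.5 RPKM and ENSPEMG00000024161 on chromosome 2 with 10.9 RPKM. ENSPEMG00000010634 on chromosome 6 reached 2.08 RPKM, with 52 of 58 internal exons divisible by 9. ENSPEMG00000030858 on chromosome 20, with a mean count of 3.8, did not pass the count minimum and its values between animals were not interpreted. Of the 11 expressed genes of the pattern, 7 had a CV above 50%, and their median CV was 63.8%. Without animals 36764 and 36789, these were 6 genes and 53.6%.

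The 3 highest values came from animals 36797, 36798 and 36907 in 7 expressed genes of the pattern. These animals were singled out after the values had been seen. The share of all expressed genes with the same 3 highest animals is not given, so the count has no background. In ENSPEMG00000012578, ENSPEMG00000016978 and ENSPEMG00000010634 the next animal lay close to the lowest of the 3 animals. The first of these genes had 589 RPKM in animal 36797 and 586 RPKM in animal 36905, with a low outlier of 226 RPKM in animal 36789. The last had 1.64 RPKM in animal 36798 and 1.34 RPKM in animal 36772. In 4 others the 3 animals were set apart. ENSPEMG00000012994, ENSPEMG00000017917, ENSPEMG00000016918 and ENSPEMG00000024161, each on another chromosome, are these 4. ENSPEMG00000017917 lay between 805 and 1436 RPKM in these 3 animals and between 70.4 and 481 RPKM in the other 7. ENSPEMG00000016918 lay between 76.2 and 99.9 RPKM in the 3 animals and between 3.15 and 19.3 RPKM in the 7. ENSPEMG00000024161 lay between 17.8 and 29.1 RPKM and between 1.63 and 9.24 RPKM, respectively. Because the libraries fell into separate clusters in these genes, no correlation over all 10 animals is given for these 4, and the clusters are not groups of the study. Over the other 7 animals alone, log2 CPM (library-scaled counts on a log2 scale) of the 6 pairs had Pearson's R between 0.82 and 0.99, with Spearman's rho between 0.68 and 0.93. Without animal 36764, which had the lowest level of all 4 genes, R over the remaining 6 animals lay between 0.44 and 0.90.

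ENSPEMG00000015543 had the reverse order. Its 3 lowest values came from animals 36797, 36798 and 36907, between 3.18 and 7.89 RPKM, and the other 7 animals lay between 9.24 and 34.7 RPKM, the highest being animal 36764. The clusters were nearly contiguous in this gene, and within the 7 animals its R with the other 4 genes lay between -0.68 and -0.39, and between 0.08 and 0.37 once animal 36764 was left out. ENSPEMG00000010634 was highest in animals 36907 (9.60 RPKM) and 36797 (5.12 RPKM) and lay between 0.156 and 1.64 RPKM in the others.

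**Figure D4:**
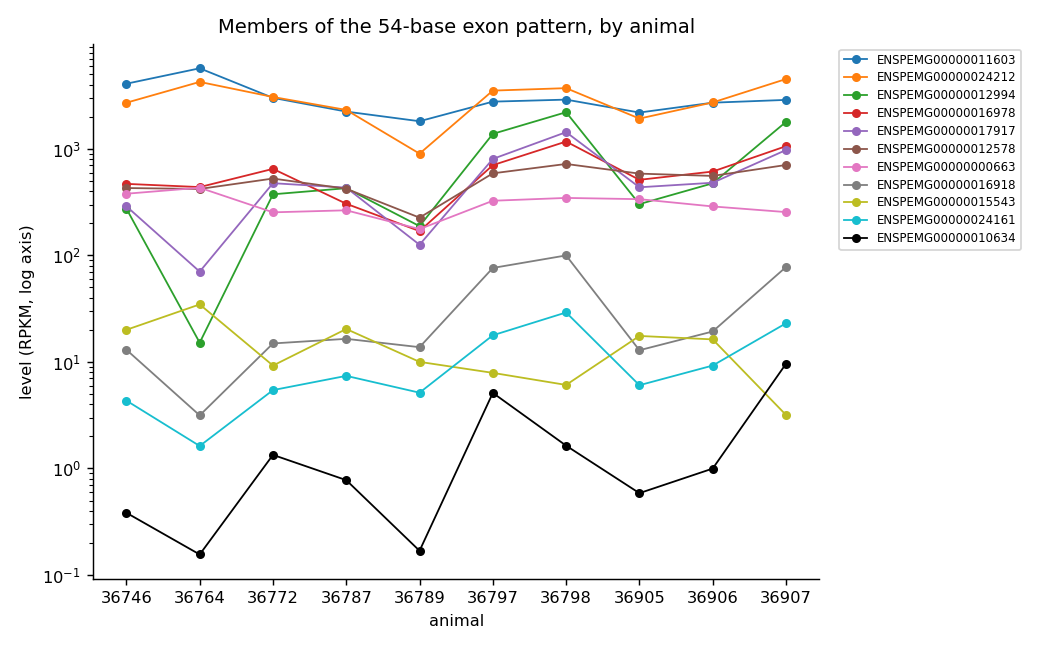
Level in RPKM (y axis, log scale) of the 11 expressed members of the 54-base exon pattern in each of the 10 animals (x axis, in order of their numbers), with 1 line per gene and 1 library per point; lines join the values of a gene and do not show a course. ENSPEMG00000012994, ENSPEMG00000017917, ENSPEMG00000016918 and ENSPEMG00000024161 are highest in animals 36797, 36798 and 36907, where ENSPEMG00000015543 (olive) has its lowest values, and animal 36764 has the lowest level of ENSPEMG00000012994 at 15.2 RPKM.

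Other members also had many exons divisible by 9 without the 54-base exon pattern. Their number was 9, and they included ENSPEMG00000011883, described above, ENSPEMG00000004697 on chromosome 21 with 70.0%, ENSPEMG00000003734 on chromosome 2 with 67.6% and ENSPEMG00000010272 on chromosome 1 with 64.7%. Their mean levels ranged from 0.00244 to 1026 RPKM, and 7 of them passed the count minimum.

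The members with the most exons were expressed at low levels. ENSPEMG00000022085 (chr4:54007370-54279017, minus strand) had 191 merged exons with 80619 bases in all, and its mean level was 0.9499 ± 0.101 RPKM, from 0.837 to 1.14 RPKM with a median of 0.919 RPKM. ENSPEMG00000011241 (chr4:29919920-30113927, minus strand, 156 exons) averaged 1.01 ± 0.109 RPKM, from 0.820 RPKM in animal 36789 to 1.17 RPKM in animal 36772. No library of either gene stood apart. ENSPEMG00000009583 (chr14:45523977-45796001, plus strand, 116 exons) was more variable at 2.20 ± 0.901 RPKM, with a lowest value of 1.18 RPKM in animal 36798 and a highest of 4.52 RPKM in animal 36789, and its CV of 40.9% became 21.9% without animals 36764 and 36789. All 8 members of at least 100 exons lay between 0.0984 and 16.9 RPKM.

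At mean counts above 100, levels of the members varied more between animals than those of all genes with similar counts, though not more than those of the longer genes throughout. Over genes with mean counts between 1000 and 10000, the median CV was 12.8% in 191 members and 10.4% in all genes on numbered chromosomes. The contrast was wider in genes averaging 100 to 1000 counts, with 28.6% in 73 members against 15.2%, and in genes averaging at least 10000 counts, with 25.9% in 37 members against 13.5%. Genes of 20 to 34 exons had 20.3%, 10.3% and 14.6% in the classes of 100 to 1000, 1000 to 10000 and at least 10000 counts. The longer genes had 26.6% over 11 genes and 27.1% over 20 genes in the first 2 classes, the latter above the members, and only 1 of them reached 10000 counts. Without animals 36764 and 36789, the values were 10.4% against 8.78% in the range of 1000 to 10000, 20.9% against 13.1% in the range of 100 to 1000, and 18.2% against 11.4% at 10000 and above. Without the pattern, the median of the most abundant class was 23.8% over 30 members. Over all 356 expressed members, the median CV was 21.5%, against 16.01% in all expressed genes on numbered chromosomes. It was 14.2% in genes of 20 to 34 exons and 31.9% in the longer genes. Without animals 36764 and 36789, the median of the members was 15.7%. The other sets are not given over all counts without these animals, so 15.7% cannot be set against their values. In genes averaging 10 to 100 counts the order was the reverse, with 36.5% in 55 members against 39.1% in all genes on numbered chromosomes and 41.4% in genes of 20 to 34 exons. These medians were not tested.

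**Figure D5:**
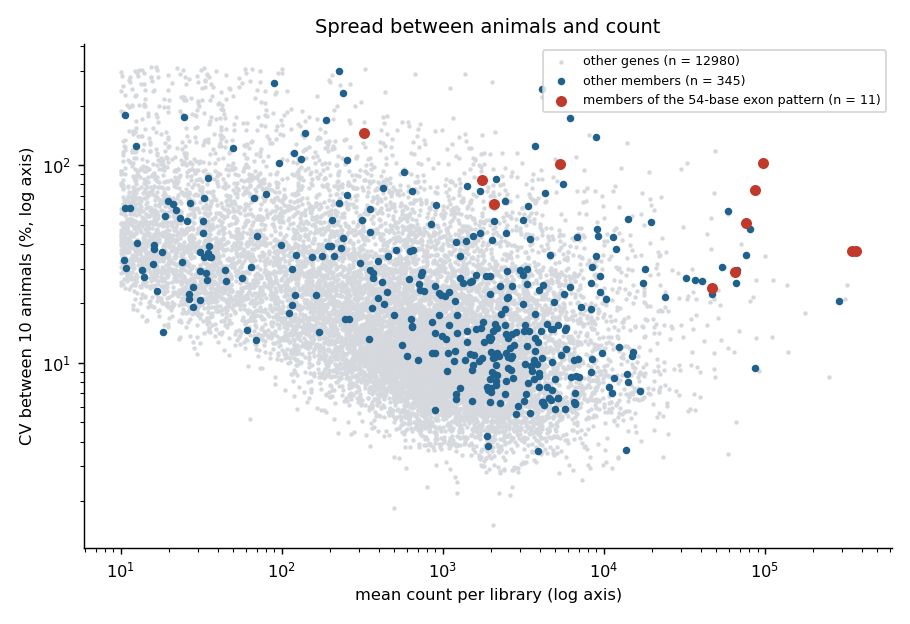
CV between the 10 animals in percent (y axis, log scale) against mean count per library (x axis, log scale) for expressed genes on numbered chromosomes: 12980 other genes in light grey, 345 other members in blue and 11 members of the 54-base exon pattern in red. The red points lie at 23.9% or above, mostly at the upper edge of genes with similar counts, and a few blue points reach 100% and more.

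The spread among the 301 members averaging at least 100 counts was wide. A CV below 10% was found in 71 (23.6%), compared with 35.6% of all genes on numbered chromosomes with such counts, and a CV above 50% in 40 (13.3%), compared with 7.21%. Without animals 36764 and 36789, these were 111 members (36.9%) against 45.1% and 25 members (8.31%) against 4.55%. The steadiest were ENSPEMG00000020126 (chr15:30336515-30436473, 46 exons) with 15.8 to 17.7 RPKM and a CV of 3.58%, ENSPEMG00000011344 (chr13:6458317-6556055, 40 exons) with 77.2 to 86.0 RPKM and a CV of 3.63%, and ENSPEMG00000022186 (chr4:141861839-141942115, 39 exons) with 12.2 to 13.7 RPKM and a CV of 3.81%. In these 3 genes no library was set apart, animals 36764 and 36789 included.

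The most variable members had 1 library far above the others. ENSPEMG00000010272 (chr1:178851165-178892185, 53 exons) had 22.2 RPKM (2115 counts) in animal 36789 and between 0.0369 and 0.372 RPKM (5 to 48 counts) in the other 9. The gap to the next library was 5.84 on the log2 CPM scale, the largest among the members. ENSPEMG00000013750 (chr8:102011240-102042376, 40 exons) had 252 RPKM (30717 counts) in the same animal and between 1.96 and 19.9 RPKM (348 to 3177 counts) in the others. ENSPEMG00000016767 (chr19:3463357-3539505, 38 exons) had 15.03 RPKM (1686 counts) against 0.302 to 0.837 RPKM (40 to 127 counts), a gap of 4.14. ENSPEMG00000019677 (chr20:51855066-51995785, 35 exons) had 3.64 RPKM (717 counts) against 0.0244 to 0.146 RPKM (7 to 34 counts), a gap of 4.56. In all 4 genes animal 36789 was high and the other 9 libraries lay apart from it. Without animals 36764 and 36789, the CVs of the first 2, which were 299% and 242%, became 90.7% and 42.2%, and those of ENSPEMG00000016767 and ENSPEMG00000019677, which were 231% and 260%, became 29.997% and 58.9%.

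A single library stood apart in a small share of the members. The highest library was an outlier by Dixon's ratio in 27 of the 356 expressed members (7.58%), against 4.92% of all expressed genes, and the lowest in 22 (6.18%), against 4.81%. Animal 36789 gave 15 of the 27 high outliers and animal 36764 gave 11. Of the 22 low outliers, 12 were in animal 36764, 7 in animal 36798 and 2 in animal 36789. Over all expressed genes, 373 of the 670 low outliers were in animal 36764, 37 in animal 36798 and 132 in animal 36789. When animals 36764 and 36789 were left out, 22 members (6.18%) had an outlier among the remaining 8 libraries, against 5.04% of all expressed genes. High outliers were thus found mainly in the same 2 libraries as over all genes. Whether the shares of members and of all genes differ was not tested.

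Members had little variation in common as a whole. Over 63190 pairs of expressed members, the mean R of log2 CPM over the 10 animals was 0.03, against 0.0004 over all expressed genes. It was 0.01 without animal 36798 and 0.04 without animals 36764 and 36789, and over all 10 animals 47.9% of pairs were negative. Pairs with R above 0.9 made up 0.821%, against 0.308% of all pairs of expressed genes, and pairs with R below -0.9 made up 0.5001%, against 0.275%. Close profiles, similar or opposite, were thus found somewhat more often than over all genes, without a common direction. The pairs share genes and libraries, and the difference was not tested.

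The profile of the most abundant member, ENSPEMG00000011603, was matched most closely by genes of far lower level. Among members, the highest R over the 10 animals was 0.90 with ENSPEMG00000023800 (chr8:69233697-69436184, 54 exons, mean 19.1 RPKM, rho = 0.83), followed by 0.88 with ENSPEMG00000021042 (chr7:62632960-62809731, 56 exons, 7.07 RPKM, rho = 0.73) and 0.88 with ENSPEMG00000017966 (chr1:39933340-40058541, 111 exons, 0.587 RPKM, rho = 0.92). Among all genes, it was 0.98 with ENSPEMG00000008354 (chr14:47093216-47211696, 9 exons, 23.3 RPKM), 0.96 with ENSPEMG00000007663 (chr4:131254544-131306174, 22 exons, 17.4 RPKM) and 0.96 with ENSPEMG00000010577 (chr4:99533341-99583407, 18 exons, 30.8 RPKM). Without animals 36764 and 36789, R lay between 0.86 and 0.88 for the 3 members and between 0.90 and 0.95 for the other 3 genes. Animal 36746 was kept in these values. It had the highest level of the animals left in ENSPEMG00000011603 (4091 RPKM) and in each of these genes, and R without it was not computed. The R given here are the highest of many values and no test applies to them.

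Some members lay side by side. Neighbouring members without another gene between them formed 25 pairs from 42 genes, 20 pairs on the same strand, 3 tail to tail and 2 head to head. In the 17 pairs with both genes expressed, R ranged from -0.76 to 0.95 with a median of 0.52, and 12 of the 17 were positive. Their mean R was 0.30, against 0.13 over 8868 adjacent pairs of expressed genes, of which 60.5% were positive. Some of the 17 pairs share a gene, and the difference was not tested. The highest R was that of ENSPEMG00000012578 and ENSPEMG00000016978, both of the 54-base exon pattern, which lie tail to tail on chromosome 13 at a distance of 27780 bases (0.95 over 10 animals, and 0.92 without animals 36764 and 36789). Another abundant pair, ENSPEMG00000016638 (47 exons, 335 RPKM) and ENSPEMG00000019749 (52 exons, 489 RPKM), lies head to head on chromosome 17 at a distance of 857 bases, with R = 0.88, and 0.81 without both animals. More than 50% of the internal exons of the former and 40.0% of those of the latter were divisible by 9.

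The longest run of neighbouring members held 6 genes with 36 to 39 exons, all on the plus strand of chromosome 8 between 51110055 and 51406027. Their mean levels ranged from 0.114 to 14.5 RPKM, highest in the third gene, ENSPEMG00000017322. A second run on chromosome 8, between 95712451 and 96024833 on the minus strand, held 4 genes of 38 exons each, with mean levels of 0.248, 6.47, 0.0512 and 3.27 RPKM in the order of position. The 3 that passed the count minimum were highest in animal 36907, and ENSPEMG00000000094 (0.0512 RPKM) did not pass it. Genes of like exon number in a row may be copies of one another, and only uniquely mapped reads were counted, so that the levels of near-identical genes are uncertain. Whether these genes share reads was not tested. Exons of 5 expressed members overlap an exon on the other strand, and since strand was not used in counting, reads of both genes cannot be told apart there.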

How the data were processed

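RNA from primary ear fibroblasts of 10 male BW deer mice aged 3 weeks was sequenced, with 1 library per animal. The authors prepared directional libraries. Per their methods and processing notes, they trimmed reads with Trim Galore 0.4.5, aligned them to HU_Pman_2.1 with STAR 2.7.2b, kept uniquely mapped pairs and used featureCounts 1.5.3 to count them on Ensembl 98 genes. The deposited file holds raw counts per gene and animal, not normalized and not pooled, and per the file headers the counting did not use strand. Total counts ranged from 20811334 to 31912526 per library, and the errors given are the spread between animals.

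From these counts, TMM factors and log2 CPM (prior count 2) were computed with edgeR 4.0.16 under R 4.3.3. RPKM denotes TMM-scaled CPM per kilobase of merged exon. Genes averaging at least 10 counts entered measures of variation. Exon lengths were taken from the exon coordinates in the table, after merging. Further values were computed with Python 3.11.15, pandas 2.3.3, numpy 2.4.6 and scipy 1.17.1, and the scripts were tested on simulated data. The 10 animals form a single group, so no comparison between groups was made, and lists are described by counts and medians beside those over all genes. Of 25394 identifiers, 0 were matched to a symbol, since 0 of 37364 RefSeq genes of the HU_Pman_BW_mat_3.1 assembly carry an Ensembl identifier, and the planned check of cell type markers was not run. 0 columns were left unassigned.

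The members, lists and measures were chosen with earlier results of these data known. The genes named by rule were the 6 members of highest mean RPKM, the 3 with the most exons, the 5 with the highest share of internal exons divisible by 9, the 3 of lowest and 3 of highest CV among those averaging at least 100 counts, the 3 with the largest gap of 1 animal, and the 3 members and 3 genes most like the most abundant member. The gap and the share divisible by 9 were ranked among members that passed the count minimum. Other genes were named after their values had been seen, as were the 54-base exon pattern and its neighbours on the chromosome. Alternatives were other count minimums, DESeq2 1.42.0 size factors, exon limits of 30 and 40, other exon merging and leaving out animals.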

Additional observations from a re-analysis of the deposited data

Results flagged for a closer look

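The values set apart by 1 animal that are listed here came from 2 libraries. In animal 36764, the share of counts on members outside the 54-base exon pattern was 8.03%, above all other animals, and ENSPEMG00000012994 was far below them at 15.2 RPKM. In animal 36789, ENSPEMG00000024212 was far below the others at 902 RPKM. In the same animal, ENSPEMG00000010272 (22.2 RPKM), ENSPEMG00000013750 (252 RPKM), ENSPEMG00000016767 (15.03 RPKM) and ENSPEMG00000019677 (3.64 RPKM) were far above the others. Each was found by Dixon's ratio over the 10 animals, which chance passes in about 1 of 20 groups, and the last 4 genes were named for their spread or gap, so that such a value was to be found among them. What distinguishes these libraries was not tested.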

How the results depend on the processing

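With a limit of 30 exons in place of 35, 589 genes passed the mean count of 10, the share of counts was 13.6%, the median level 11.8 RPKM, 78 genes had an outlying library, and 44.2% and 16.7% of internal exons were divisible by 3 and by 9. With a limit of 40 exons these were 225 genes, 9.13%, 30 genes with an outlying library, 48.1% and 19.7%. The genes counted differ between these limits, and no other cause was tested. The median level was 7.30 RPKM with no count minimum and 12.95 RPKM when a mean count of 100 was required, and the median CV with that minimum was 16.6%, since genes of low counts enter or leave. Leaving out 1 animal at a time, the median CV ranged from 17.0% (without animal 36764) to 22.2%. The alternatives in the next 2 sentences, and the joining of exons less than 30 bases apart, were chosen after seeing the data. Without animals 36764 and 36789 together, the median CV was 15.7% and 22 members had an outlying library instead of 49. Without the 54-base exon pattern, 15.6% of internal exons were divisible by 9. Not every alternative was run for every summary value. Where they were run, DESeq2 size factors, the joined exons and the other alternatives moved no other summary value beyond its margin. The margin was the SD between animals for shares of counts and levels. For CV it was the SD between animals of their median deviation from the mean. For mean R it was the standard error from leaving out 1 animal at a time (jackknife). For shares of internal exons it was a binomial confidence interval over exons, although exons of the same gene are not independent. The alternatives moved no other count by over 1.5 times, and none of these summary values changed sign. The R of ENSPEMG00000015543 with 4 genes of the pattern over 7 animals, between -0.68 and -0.39, lay between 0.08 and 0.37 without animal 36764, an alternative also added after seeing the data, and the cause was not tested. No paired analysis was possible because the animals form a single group. Depth limits the genes under a mean count of 10, 55 of the 411, whose variation is not described.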
